A study of Ovis aries with 6 samples.

Results

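Scavenger receptor class B member 1 (SCARB1) and 6 genes of cholesterol synthesis and its control (HMGCS1, SQLE, INSIG1, MSMO1, IDI1 and FDFT1) were read gene by gene across the cell types of the Hu sheep ovary. The 7 genes were given by name, with no threshold on their values, though earlier results of these data were known, out of 30574 genes counted in the deposited matrices, and all 7 were detected and passed the filter on low counts in every comparison described here. A list of 50 genes of sterol synthesis, control, uptake, storage and efflux, of which 44 were found by symbol in the counts, gave 37 further genes of the same pathways. Hu sheep is a prolific Chinese breed. The study compared 3 ewes of a high litter size group (HLS, at least 3 lambs) with 3 ewes of a low litter size group (LLS, fewer than 2 lambs), all adult ewes killed soon after the onset of estrus, and 1 ovary of each ewe was dissociated into cells and sequenced as 1 library. The groups rest on recorded litter size, with no treatment and no named allele, and each ewe is 1 replicate.

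Steroid-making cells of the ovary draw cholesterol from lipoproteins in the blood and from their own synthesis. SCARB1 is the receptor that takes cholesteryl ester from high-density lipoprotein. HMGCS1 acts early in the mevalonate pathway, IDI1 isomerises isopentenyl diphosphate, FDFT1 makes squalene, SQLE oxidises it, and MSMO1 removes methyl groups from the sterol nucleus. INSIG1 holds the SREBP activator complex in the endoplasmic reticulum when sterol is plentiful, and SREBP2, the product of SREBF2, drives transcription of the synthesis genes and of INSIG1 itself. The avascular granulosa layer of a follicle is separated from blood by a basement membrane, while theca and luteal cells lie among vessels.

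The counts were unique molecular identifiers (UMI), so that each captured RNA molecule was counted once. The 6 libraries held 43329214 to 75549906 UMI, and 36457 cells were retained, 5189 to 7096 per ewe with a median of 5204 to 9794 UMI per cell. Cells were clustered without the 7 genes and without the rest of the sterol list, so that none of them placed a cell in a cluster. Each cluster took a name, ending in -like, from its marker genes. The sterol genes were not left out when doublets were removed or when the leading genes of a cluster were ranked. There were 2736 granulosa-like, 1860 theca-like, 8386 stromal-like, 14692 endothelial-like, 2614 perivascular-like and 2594 immune-like cells, which are called the 6 main types here, and 106 luteal-like cells, 105 of them from LLS3. HLS2 and LLS1 stood apart in the endothelium, where an endothelial-like cluster led by FAM167B held 65.1% of the endothelial-like cells of HLS2 and 74.8% of those of LLS1, against 1.13% to 3.16% in the other 4 ewes. Of 51993 distinct barcode sequences, 297 occurred in more than 1 library, and 141 of these were among retained cells. A level is given as UMI of the gene per 10000 UMI of all cells of a type summed within an ewe, with the mean ± SD over ewes. Levels were compared between cell types and ewes for the same gene, and not between genes.

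SCARB1 was highest in endothelial-like, theca-like and luteal-like cells and low in stromal-like and granulosa-like cells. Its level in endothelial-like cells was 2.13, 1.68 and 2.08 in HLS1, HLS2 and HLS3 and 1.82, 2.06 and 2.14 in LLS1, LLS2 and LLS3 (1.99 ± 0.188, SD, n = 6). The theca-like level was 1.45, 1.35 and 0.893 among HLS1 to HLS3 and 1.93, 2.90 and 1.45 among LLS1 to LLS3 (1.66 ± 0.690, n = 6). The ranges of these types overlapped, and endothelial-like cells had the highest level of the 6 main types in 4 ewes and theca-like cells in 2, LLS1 and LLS2. Without HLS2 and LLS1 the endothelial-like level was 2.10 ± 0.039 (n = 4).

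Stromal-like cells, which surround the theca, carried SCARB1 at 0.138 ± 0.042 with a highest ewe of 0.216 (n = 6), below every endothelial-like and theca-like value. The mean was 14.3 times higher in endothelial-like and 12 times higher in theca-like cells than in stromal-like cells, in 6 of 6 ewes for both. Granulosa-like cells stood between, at 0.414 ± 0.154 with a range of 0.227 to 0.643, which was 2.99 times the stromal-like mean and higher in 6 of 6 ewes. Immune-like cells were at 0.367 ± 0.050 and perivascular-like cells at 0.138 ± 0.045. Endothelial-like cells were 40.3% of all retained cells and held 28659 of the 38976 UMI of SCARB1 (73.5%), while theca-like cells held 9.71% and granulosa-like cells 2.57%. These shares also depend on depth, since the median was 8464 UMI per cell in endothelial-like, 5138 in stromal-like and 14468 in theca-like cells. The share of each type in the UMI of all genes was not taken.

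The summed level of the 10 endothelial markers was 36.05 to 54.18 in endothelial-like cells, 1.11 to 3.58 in theca-like, 1.66 to 3.67 in stromal-like and 0.923 to 1.26 in granulosa-like cells, with no marker at 0 in these types. The theca markers summed to 18.31 to 30.60 in theca-like cells, 0.472 to 1.51 in endothelial-like and 1.09 to 2.53 in stromal-like cells. The SCARB1 mean was 1.99 in endothelial-like and 1.66 in theca-like cells. How much of the SCARB1 level of theca-like, stromal-like and granulosa-like cells came from endothelial-like cells or free RNA in the droplets was not tested.

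The 6 genes of synthesis and its control had another order, with granulosa-like cells at the top and endothelial-like cells at the bottom. MSMO1 in granulosa-like cells was 3.06, 5.49 and 3.11 among HLS1 to HLS3 and 4.83, 4.0 and 3.33 among LLS1 to LLS3 (3.97 ± 1.0, n = 6). The means were 2.10 in theca-like, 1.44 in stromal-like, 1.11 in perivascular-like, 0.653 in immune-like and 0.593 in endothelial-like cells. MSMO1 was highest in granulosa-like cells in 5 of 6 ewes, and in HLS1 theca-like cells had more, at 3.39.

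INSIG1, summed over all granulosa-like cells of an ewe, lay above every value of the other types. Its level there was 1.13, 1.22 and 1.07 among HLS1 to HLS3 and 1.33, 1.04 and 0.919 among LLS1 to LLS3 (1.12 ± 0.143). The highest value of any ewe was 0.355 in theca-like cells and 0.805 in the few Schwann-like cells. IDI1 was likewise without overlap between granulosa-like cells (2.32 to 4.73) and theca-like cells (1.20 to 2.20), the type next to them in its order. SQLE was highest in granulosa-like cells in 6 of 6 ewes, at 0.737 to 1.49 against 0.203 to 0.487 in theca-like cells. These levels pool unlike granulosa-like cells. INSIG1 was 1.11 to 1.29 (n = 5 ewes) in a granulosa-like sub-cluster led by PTX3. It was only 0.207 to 0.535 (n = 4) in one led by MMP9 and 0.091 to 0.553 (n = 5) in one led by PPP1R1A, which overlapped theca-like cells.

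HMGCS1, the early enzyme of the pathway, was spread more evenly. It was 0.996 ± 0.390 in granulosa-like, 0.852 ± 0.189 in theca-like and 0.752 ± 0.188 in stromal-like cells, the ranges of these types overlapped, and granulosa-like cells had the highest level in 3 ewes, theca-like cells in 2 and stromal-like cells in 1. FDFT1 was highest in granulosa-like cells in 5 of 6 ewes, at 0.230 to 0.425, and equal on average in theca-like and stromal-like cells, at 0.240 in both.

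Endothelial-like cells, with the highest mean of SCARB1 among the 6 main types, had the lowest INSIG1 of the 6 main types in 6 of 6 ewes. They were also lowest in HMGCS1, SQLE, IDI1 and FDFT1 in 5 of 6 ewes and in MSMO1 in 4 of 6. HLS2 and LLS1 were the highest ewes for each of these genes in endothelial-like cells. The same held in granulosa-like and perivascular-like cells, but not in theca-like, stromal-like or immune-like cells. MSMO1 in granulosa-like cells, for example, was 5.49 in HLS2 and 4.83 in LLS1. These were also the deepest libraries, with medians of 7713 and 9794 UMI per cell, and a part of depth was not tested. MSMO1 in endothelial-like cells was 1.35 in HLS2 and 0.908 in LLS1 against 0.295 to 0.354 in the other ewes. Its mean without these 2 ewes was 0.325 ± 0.024 in place of 0.593 ± 0.440. SQLE was 0.303 in HLS2 and 0.222 in LLS1 against 0.037 to 0.080 in the others. Markers of granulosa cells summed to 0.320 to 1.15 in endothelial-like cells against 12.85 to 36.79 in granulosa-like cells.

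**Figure D1:**
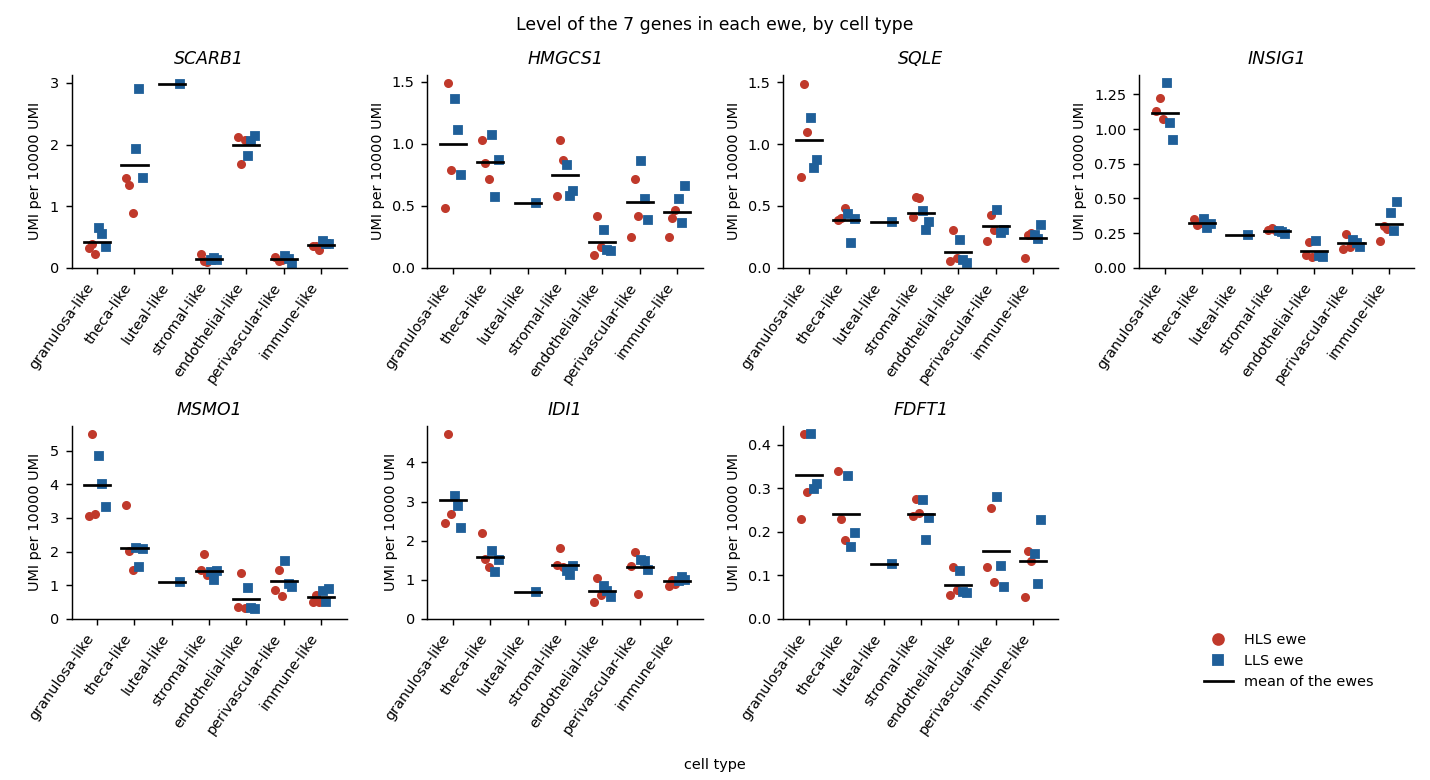
Level of each of the 7 genes (y axis, UMI per 10000 UMI, each panel with its own scale from 0) in the cell types (x axis). Each point is 1 ewe, HLS and LLS ewes with different marks, and the line is the mean over ewes: SCARB1 stands high in endothelial-like (1.68 to 2.14) and theca-like cells (0.893 to 2.90), and INSIG1 in granulosa-like cells lies between 0.919 and 1.33, above every value of theca-like cells.

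Granulosa-like cells were tested against the mean of the other main types in 1 fit over all 6 ewes with the ewe as a block. INSIG1 (log2 fold change 2.16 ± 0.11, SE, adjusted p = 1.4e-16), MSMO1 (1.78 ± 0.16, adjusted p = 4.7e-11), SQLE (1.72 ± 0.18, adjusted p = 1.8e-09), IDI1 (1.23 ± 0.12, adjusted p = 5e-10), FDFT1 (0.93 ± 0.16, adjusted p = 1.1e-05) and HMGCS1 (0.79 ± 0.17, adjusted p = 0.00018) were higher in granulosa-like cells. That is 6 of 7 genes higher and 1 lower, in a comparison that called 27.8% of the 14540 genes tested higher and 28.1% lower. SCARB1 was lower by log2 fold change -0.39 ± 0.15 (adjusted p = 0.024), but this call was lost when libraries were scaled by total counts alone (-0.23, adjusted p = 0.19), without the ewe block (adjusted p = 0.11) and without HLS1 (-0.27, adjusted p = 0.14) or HLS3 (-0.32, adjusted p = 0.079). The median log2 fold change of the 7 genes was 1.23, beside -0.02 over all genes tested. Scaling by total counts alone moved the share of called genes that were higher from 49.8% to 64.3%, and the 6 synthesis and control genes stayed higher. The p values rest on how much the differences between types varied from ewe to ewe, for classes that were drawn from the same cells.

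By role, of 19 synthesis genes, the 5 members included, 16 were higher in granulosa-like cells and 0 lower by edgeR's quasi-likelihood test. Of the 37 non-members, 17 were higher and 8 lower. Among the largest rises were those of PLIN2, which coats lipid droplets (log2 fold change 3.17), TM7SF2, a sterol reductase (2.34), LRP8, a lipoprotein receptor (2.13), and DHCR7, which makes cholesterol in the last step of synthesis (1.79). PLIN2 was also among the leading genes of a granulosa-like cluster. SREBF2 was higher by 0.31. The largest falls were those of NR1H3, a sterol-sensing nuclear receptor (-1.79), ABCA1, a cholesterol exporter (-1.39), SOAT1, which esterifies cholesterol (-1.04), APOE, a lipoprotein component (-0.73), and STARD3, an endosomal sterol carrier (-0.60). Storage and efflux genes had 1 higher and 3 lower of 7, and uptake and trafficking genes 2 higher and 3 lower of 10. Over all genes tested, 27.8% were higher and 28.1% lower.

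Theca-like cells differed from stromal-like cells above all in SCARB1. Its log2 fold change was 3.64 ± 0.19 (adjusted p = 2.4e-15), which is 12.5-fold, with theca-like cells higher in 6 of 6 ewes, and 3.58 without HLS2 and LLS1. MSMO1 was higher by 0.70 ± 0.23 (adjusted p = 0.012) and INSIG1 by 0.41 ± 0.17 (adjusted p = 0.043). The INSIG1 call was lost on scaling by total counts alone (0.28, adjusted p = 0.16) and when any 1 ewe was left out (0.36 to 0.43), and the MSMO1 call without HLS1 (0.47, adjusted p = 0.092) and with no ewe block (0.72, adjusted p = 0.057). With no doublet removal HMGCS1 (0.63, adjusted p = 0.043) and IDI1 (0.53, adjusted p = 0.022) were called higher, as they were with a mitochondrial limit of 20% (0.61 and 0.52). With either setting a large stromal cluster stayed unnamed and was not among the stromal-like cells. The part of this in the calls was not tested. HMGCS1 (0.38, adjusted p = 0.17), IDI1 (0.36, adjusted p = 0.086), FDFT1 (0.13) and SQLE (-0.05) did not pass. Thus 3 of 7 genes were higher and 0 lower, beside 21% of 14540 genes higher and 26.9% lower, and total-count scaling moved the share of calls that were higher from 43.8% to 31.9%.

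Other steps of synthesis were higher in theca-like cells than in stromal-like cells. Of 19 synthesis genes 12 were higher, and of the 37 non-members 20 were higher and 6 lower, beside 21% and 26.9% of all genes. TM7SF2 (3.41), DHCR7 (1.91), the hormone-sensitive lipase gene LIPE (1.38) and the farnesyl diphosphate synthase gene FDPS (1.31) were among those with the largest log2 fold changes upward. NCEH1, a cholesteryl ester hydrolase (-1.65), LIPA, the lysosomal acid lipase (-1.33), NPC2, which carries sterol out of lysosomes (-1.05), and INSIG2 (-0.48) were lower. SREBF2 was higher by 0.49. The theca-like cells made the steroid enzymes that define them, with CYP11A1, the side-chain cleavage enzyme, at 5.95 and CYP17A1, the enzyme of androgen synthesis, at 3.29.

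Luteal-like cells came almost wholly from LLS3, with 105 cells and 1199669 UMI, so that values with exact Poisson intervals, which cover counting error only, are given and no test. SCARB1 was 2.99 (359 UMI, 95% interval 2.69 to 3.32), above the 2.14 (2.08 to 2.20) of endothelial-like, the 1.45 (1.36 to 1.55) of theca-like and the 0.344 (0.272 to 0.429) of granulosa-like cells of the same ewe. The other 6 genes had lower values than in the granulosa-like cells of LLS3. MSMO1 was 1.08 (0.905 to 1.29) against 3.33 (3.10 to 3.57) and IDI1 0.684 (0.544 to 0.848) against 2.32 (2.13 to 2.53). INSIG1 was 0.233 (0.155 to 0.337) against 0.919 (0.799 to 1.05), SQLE 0.367 (0.266 to 0.492) against 0.871 (0.755 to 1.0), and FDFT1 0.125 (0.070 to 0.206), from 15 UMI, against 0.309 (0.242 to 0.390). The intervals of HMGCS1 overlapped, at 0.525 (0.404 to 0.672) against 0.749 (0.642 to 0.870). Against the mGC-like cells of LLS3 alone, HMGCS1 was not lower in luteal-like cells, at 0.525 against 0.282 (0.176 to 0.426), and FDFT1 was 0.125 against 0.090 (0.036 to 0.185).

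HSD3B1, which completes progesterone synthesis, was at 15.51 and CYP11A1 at 12.07, while CYP17A1 was at 0.017 from 2 UMI and aromatase (CYP19 in these files) had 0 UMI, with an upper end of the exact interval at 0.031. STAR, which carries cholesterol into mitochondria, was at 0.083. In theca-like cells of LLS3 STAR was at 0.226, HSD3B1 at 1.83 and CYP11A1 at 7.57. The 7 luteal markers summed to 380.95. Genes of red blood cells, whose markers summed to 95.28, were also among those that led the cluster. With 1 ewe, a difference between ewes and a difference between cell types cannot be told apart for these cells, except against other cells of LLS3.

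Within granulosa-like cells, 456 eGC-like (early granulosa), 905 mGC-like (mural granulosa) and 494 CC-like (cumulus) cells were named from markers. The rest were 191 cycling and 690 unnamed cells. Of the unnamed cells, 548 were in a sub-cluster led by CCN3, 326 of them from HLS3. Sub-clusters led by genes of another type were left out of the granulosa-like cells. Mural cells line the follicle wall, and cumulus cells surround the oocyte. The mGC markers summed to 54.00 to 80.51 in mGC-like cells and at most 11 in eGC-like cells. Outside the granulosa-like cells the mGC markers summed to 13.22 to 23.14 in theca-like and 14.01 to 26.93 in stromal-like cells. The CC markers summed to 56.48 to 77.36 in CC-like cells and at most 32.09 in eGC-like cells. The eGC markers did not set the eGC-like cells apart from all others. They summed to 18.87 to 28.39 there, to 16.65 to 21.85 in CC-like and 4.45 to 10.34 in mGC-like cells, and to 13.69 to 33.75 in endothelial-like and 17.48 to 42.49 in perivascular-like cells. CYP19 was at 0 in mGC-like cells of all ewes. The median depth was 4088 UMI per cell in eGC-like, 12246 in mGC-like and 8463 in CC-like cells.

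MSMO1 showed the widest gap between states. In eGC-like cells it was 7.16, 7.23 and 5.50 among HLS1 to HLS3 and 8.33, 6.79 and 5.84 among LLS1 to LLS3. In mGC-like cells it was 2.37, 2.55 and 1.53 and then 2.29, 2.05 and 1.6, all below every eGC-like value. CC-like cells were at 7.35, 6.82 and 6.46 and at 8.83, 7.66 and 7.95, which overlapped the eGC-like range.

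HMGCS1, SQLE and IDI1 were also low in mGC-like cells. The mGC-like ranges were 0.282 to 0.687 for HMGCS1, 0.512 to 0.722 for SQLE and 1.34 to 2.34 for IDI1, and the eGC-like ranges 1.01 to 1.82, 1.09 to 2.5 and 3.13 to 6.85. For these genes and MSMO1, mGC-like cells were the lowest of the 3 states in 6 of 6 ewes, for FDFT1 in 5 and for INSIG1 in 4. SCARB1 was the exception, with 0.416 ± 0.175 in mGC-like and 0.247 ± 0.184 in eGC-like cells, whose ranges overlapped (0.229 to 0.648 and 0.106 to 0.576). The eGC-like value rested on 38 UMI in all, and on 2 in the ewe with fewest.

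**Figure D2:**
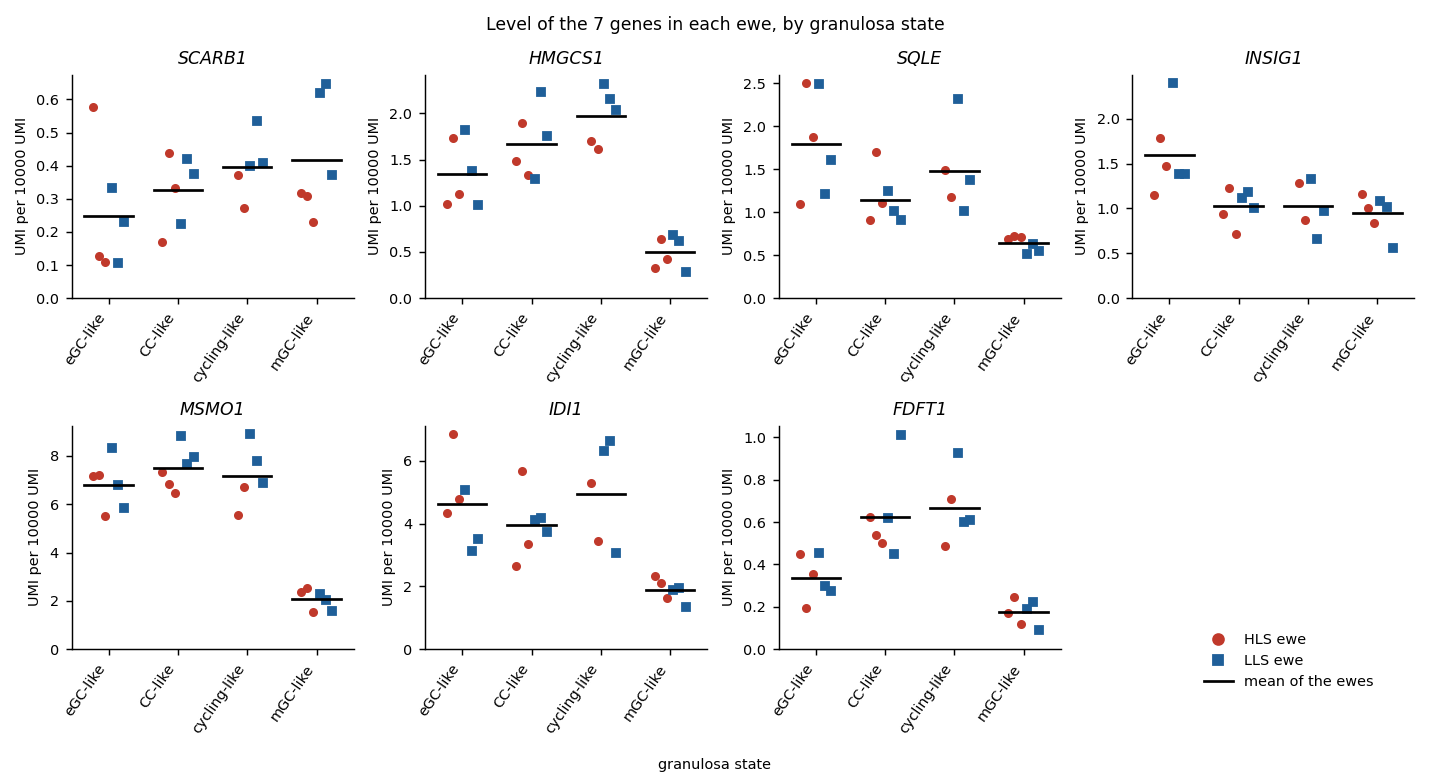
Level of each gene (y axis, UMI per 10000 UMI, own scale from 0 in each panel) in the granulosa states (x axis), with 1 point per ewe and the mean over ewes as a line. MSMO1 in mGC-like cells (1.53 to 2.55) lies below every value of eGC-like (5.50 to 8.33) and CC-like cells (6.46 to 8.83), and SCARB1 overlaps between the states.

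In the fit of mGC-like against eGC-like cells with the ewe as a block, MSMO1 was lower by log2 fold change -1.59 ± 0.12 (adjusted p = 1.7e-12), HMGCS1 by -1.31 ± 0.17, SQLE by -1.27 ± 0.17 and IDI1 by -1.14 ± 0.16, and these calls held in every alternative. FDFT1 was lower by -0.83 ± 0.27 (adjusted p = 0.011), a call lost without HLS3, and INSIG1 by -0.61 ± 0.16 (adjusted p = 0.0024), lost without HLS2 and LLS1 together (-0.46, adjusted p = 0.073). SCARB1 was higher by 1.14 ± 0.31 (adjusted p = 0.0035), lost without LLS2 (0.72, adjusted p = 0.083). Hence 6 of 7 genes were lower and 1 higher, where 21.7% of 8681 genes were lower and 24.5% higher; total-count scaling moved the share of calls that were higher from 53% to 40.9%.

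Of 17 synthesis genes tested 10 were lower in mGC-like than in eGC-like cells and 0 higher. Of 5 storage and efflux genes 4 were higher and 0 lower, and of 7 uptake and trafficking genes 4 were higher and 1 lower. Of the 29 non-members tested, 8 were higher and 9 lower, beside 24.5% and 21.7% of all genes tested. PLIN2 (4.01), LIPA (2.81), NPC2 (1.77) and the cholesterol exporters ABCG1 (1.17) and ABCA1 (1.13) had the largest log2 fold changes upward. SREBF1, the gene of the lipid regulator SREBP1 (-2.19), LSS, which closes the sterol rings (-1.26), and SREBF2 (-0.98) were among those with the largest downward.

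Other markers moved with this comparison. The stromal markers summed to 9.08 to 20.77 in mGC-like and 4.99 to 8.42 in eGC-like cells, the theca markers to 2.06 to 4.97 and 0.316 to 1.69, and the luteal markers, some of which are also theca markers, to 3.15 to 6.69 and 0.512 to 1.97. The endothelial markers summed to 0.512 to 1.10 in mGC-like and 1.17 to 3.24 in eGC-like cells, the perivascular markers to 1.55 to 2.96 and 4.22 to 10.50, and the immune markers to 0.103 to 0.250 and 0.384 to 0.657. The granulosa markers summed to 5.64 to 9.25 in mGC-like and 6.21 to 20.33 in eGC-like cells, against 37.80 to 88.44 in CC-like cells. In theca-like cells they summed to 3.11 to 4.38 and in stromal-like cells to 1.44 to 1.95. CYP11A1 is a theca, luteal and mGC marker, and MYH11 is a perivascular and eGC marker. The theca, luteal and perivascular sums thus depended in part on the naming of the states. In LLS3, CYP11A1 alone was at 4.77 in mGC-like cells, where the theca markers summed to 4.97. Whether cells of other types had a part in the result was not tested. SCARB1 itself was at most 0.216 in stromal-like cells, 0.893 to 2.90 in theca-like cells and 2.99 in the luteal-like cells of LLS3. The mGC-like cells of different ewes came from different sub-clusters. A sub-cluster led by GCG held 86.4% of those of HLS1 and a sub-cluster led by LOC114108841 held 70.4% of those of LLS2, and the other ewes drew mainly on sub-clusters led by PTX3 and MMP9. The eGC-like cells were also mixed. A sub-cluster led by LOC101117443 held 58.8% of those of LLS2 and 0% of those of HLS3. Its SQLE (0.484 to 1.69) and IDI1 (1.73 to 3.83, n = 3 ewes) overlapped the mGC-like ranges. In the eGC-like sub-cluster led by PTPRD they were 1.36 to 2.89 and 4.23 to 7.46 (n = 6). The part of this makeup in the result was not tested.

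In CC-like cells 3 synthesis genes and SCARB1 were higher than in eGC-like cells. Among them, FDFT1 was higher by 0.97 ± 0.26 (adjusted p = 0.0029), HMGCS1 by 0.57 ± 0.16 (adjusted p = 0.0057), MSMO1 by 0.36 ± 0.11 (adjusted p = 0.012) and SCARB1 by 1.07 ± 0.35 (adjusted p = 0.013). The mean level of SCARB1 was 0.327 in CC-like and 0.247 in eGC-like cells, a ratio of 1.32, and CC-like cells were higher in 4 of 6 ewes. Its eGC-like level rested on 38 UMI in all. INSIG1 (-0.41, adjusted p = 0.056), SQLE (-0.38, adjusted p = 0.08) and IDI1 (-0.00) did not pass. That is 4 of 7 higher and 0 lower, beside 21.9% of 8681 genes higher and 19.7% lower. Several of these calls changed with the processing. With total-count scaling HMGCS1 (0.34, adjusted p = 0.092) and MSMO1 (0.13, adjusted p = 0.37) were no longer called, INSIG1 (-0.64) and SQLE (-0.61) were called lower, and the share of calls that were higher went from 52.6% to 32.8%. The SCARB1 call was lost without HLS2 (0.83), HLS3 (0.86) or LLS2 (0.84), each left out alone, and the MSMO1 call without HLS3 (0.31, adjusted p = 0.062). Without HLS1, INSIG1 (-0.49) and SQLE (-0.46) were called lower, and without LLS2 INSIG1 was (-0.52).

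Of 17 synthesis genes tested, 10 were higher in CC-like than in eGC-like cells and 1 lower, beside 21.9% and 19.7% of all genes. MVK, the mevalonate kinase gene (1.99), DHCR7 (1.58), FDPS (1.31) and NSDHL, a sterol dehydrogenase gene (0.94), were among the 8 non-members that rose. ABCA1 (-2.02), LBR, a sterol reductase of the nuclear envelope (-0.89), and NPC2 (-0.81) were the 3 that fell. SREBF2 (-0.17) did not pass. The granulosa markers summed to 37.80 to 88.44 in CC-like and 6.21 to 20.33 in eGC-like cells, the stromal markers to 1.12 to 3.15 and 4.99 to 8.42, and the cycling markers to 0.823 to 2.72 and 0.124 to 0.487. AMH, FST, IHH, INHA, INHBB and HSD17B1 are both granulosa and CC markers, so the higher granulosa sum followed in part from the naming. The part of these differences in the result was not tested. The cycling granulosa-like cells, in 5 ewes, had HMGCS1 at 1.97 and FDFT1 at 0.667 on average.

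**Figure D3:**
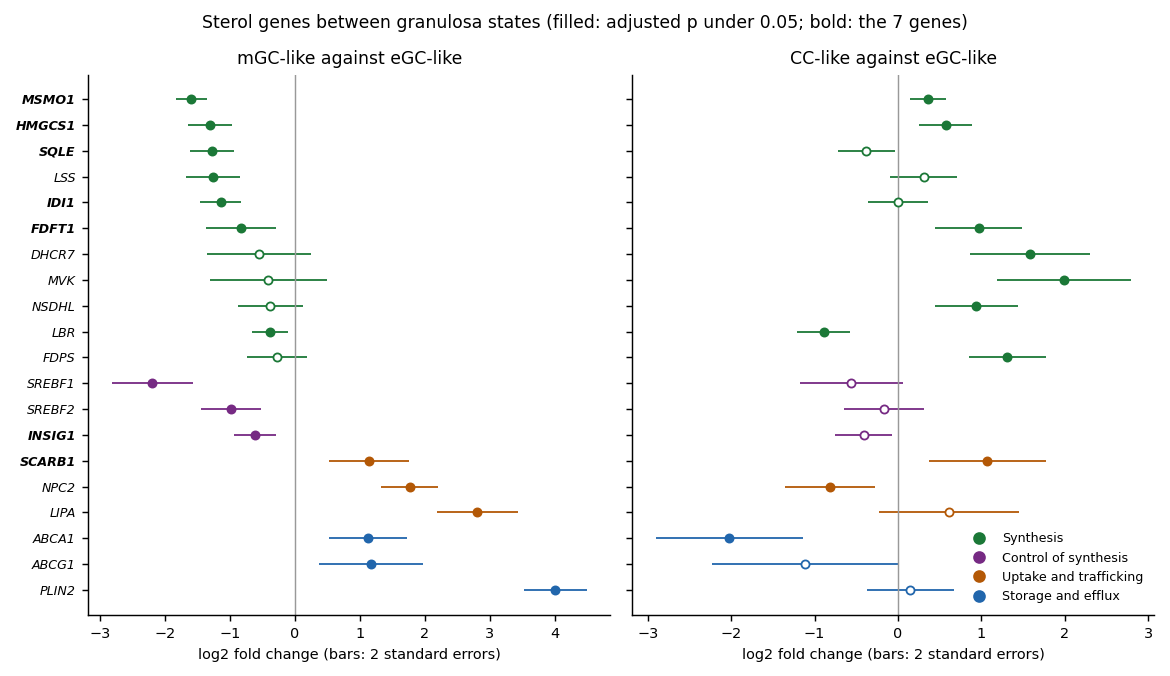
Log2 fold change (x axis, bars 2 standard errors) of the 7 genes and of the sterol genes named for the granulosa states (y axis) in mGC-like against eGC-like cells and in CC-like against eGC-like cells, filled where the adjusted p was under 0.05, the 7 genes in bold. On the mGC-like side MSMO1 lies at -1.59 and PLIN2 at 4.01; on the CC-like side MSMO1 lies at 0.36 and ABCA1 at -2.02. Both comparisons share the eGC-like cells.

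SCARB1 was not even within the endothelium. Endothelial-like cells fell into clusters named here by their leading genes, and their values are given as a description, with no test. In the cluster led by PPP1R1B SCARB1 was 2.44, 2.93 and 2.86 among HLS1 to HLS3 and 3.51, 2.95 and 2.79 among LLS1 to LLS3. In the cluster led by CCL21, a chemokine gene of lymphatic vessels, it was 0.425, 0.326 and 0.308 and then 0.191, 0.162 and 0.132 (789 cells). The ratio of the means was 0.0884, with the CCL21 cluster lower in 6 of 6 ewes. The clusters led by APLN (2.60), CXCL9 (1.71), FAM167B (1.70) and GJA5 (1.58) lay between these on average.

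The 6 synthesis and control genes ran the other way between the CCL21 and PPP1R1B clusters. In the CCL21 cluster all 6 were higher than in the PPP1R1B cluster in 6 of 6 ewes, with means of 1.34 and 0.326 for MSMO1, 0.239 and 0.055 for SQLE, 0.461 and 0.134 for HMGCS1, 0.214 and 0.063 for FDFT1, 0.244 and 0.081 for INSIG1, and 1.06 and 0.592 for IDI1. The FAM167B cluster made up most of the endothelium of HLS2 and LLS1. It had less SCARB1 than the PPP1R1B cluster in 6 of 6 ewes and more INSIG1 in 6 of 6. HMGCS1 was higher in 5 of 6 ewes, MSMO1 in 4, SQLE and IDI1 in 3 and FDFT1 in 2. MSMO1 in the FAM167B cluster was 1.57 in HLS2 and 0.954 in LLS1 and 0.154 to 0.680 in the others, whose values came from 13 to 49 cells.

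**Figure D4:**
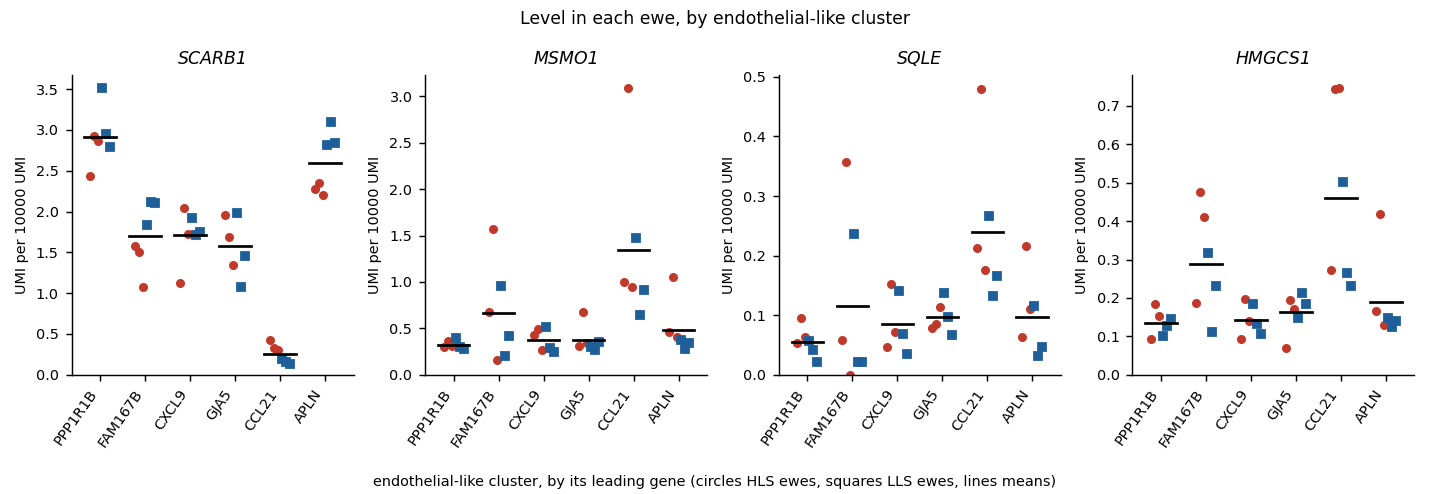
Level (y axis, UMI per 10000 UMI, from 0) of the genes in each endothelial-like cluster (x axis, named by its leading gene), circles for HLS ewes, squares for LLS ewes and lines for means. SCARB1 in the CCL21 cluster (0.132 to 0.425) lies below every value of the PPP1R1B cluster (2.44 to 3.51), and MSMO1 lies above it in each ewe.

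The pattern over cell types placed SCARB1 apart from the other 6 genes. Over 15 points, the mean levels of 11 cell types and 4 granulosa states, Pearson's r of log2(CPM + 1) between SCARB1 and each other member was -0.28 to -0.16, and it was 0.73 to 0.95 among the other 6. These are descriptions, since types share libraries and the states are part of the granulosa-like cells. Outside the sterol list, the genes most like SCARB1 among 6956 genes were CHCHD5 (0.85), PRELID1 (0.81) and EIF3A (0.76). CHRAC1 was among the 3 most like genes of IDI1 (0.97), MSMO1 (0.95), FDFT1 (0.93) and HMGCS1 (0.87). PWWP2A led the lists of SQLE (0.95) and INSIG1 (0.92), and the FSH receptor gene FSHR, a granulosa marker, was the third of INSIG1 (0.90). PRKAR2B was the third in the lists of HMGCS1 (0.87) and MSMO1 (0.92).

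Whether the 7 genes differed with litter size was tested within granulosa-like, theca-like, stromal-like and endothelial-like cells, with 3 HLS and 3 LLS ewes in each fit. None of the 7 passed in any of the 4 types, where edgeR's quasi-likelihood test called 0% of 11878, 12277, 13803 and 15143 genes. At an unadjusted p under 0.05 there were 609, 445, 661 and 203 genes, and DESeq2 called 3, 0, 1 and 4. The smallest adjusted p of edgeR's test among these genes was 0.84, shared by several of them in stromal-like cells. SQLE there was the only member with an unadjusted p under 0.05, at 0.026 (log2 fold change of HLS over LLS 0.52 ± 0.19).

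In granulosa-like cells the log2 fold changes of HLS over LLS were 0.43 ± 0.26 for IDI1, 0.40 ± 0.25 for SQLE, 0.26 ± 0.19 for INSIG1, 0.14 ± 0.26 for MSMO1, 0.07 ± 0.25 for FDFT1, -0.04 ± 0.37 for HMGCS1 and -0.49 ± 0.30 for SCARB1. The groups overlapped for 7 of 7 genes, where 15.3% of all genes did not overlap. MSMO1, for example, spanned 3.06 to 5.49 in HLS and 3.33 to 4.83 in LLS ewes. The granulosa-like sums pool the states, whose makeup differed between ewes. The mGC-like cells were 198 of 271 granulosa-like cells in HLS1, 68 of 426 in HLS2 and 212 of 840 in HLS3. They were 67 of 270 in LLS1, 274 of 585 in LLS2 and 86 of 344 in LLS3. The part of this makeup in the HLS and LLS values was not tested. Within mGC-like cells the groups did not overlap for SCARB1 (0.229 to 0.317 in HLS, 0.371 to 0.648 in LLS) and SQLE (0.691 to 0.722, 0.512 to 0.624). Within CC-like cells they did not overlap for MSMO1 (6.46 to 7.35, 7.66 to 8.83). The other genes overlapped there, as all did in eGC-like cells. HLS and LLS were not tested within states. The share of all genes without overlap was not taken there either, so these values are a description and cannot show that the genes differed more than others.

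In theca-like cells SCARB1 was the 1 gene of 7 without overlap, with 0.893 to 1.45 in HLS and 1.45 to 2.90 in LLS ewes, which touch at the printed precision, and 11% of all genes tested did not overlap. Its log2 fold change was -0.54 ± 0.32 and it did not pass. The other 6 genes had values from 0.25 ± 0.23 for INSIG1 to 0.51 ± 0.37 for MSMO1. In stromal-like cells INSIG1 did not overlap, at 0.270 to 0.289 in HLS and 0.246 to 0.265 in LLS ewes (0.21 ± 0.15), beside 9.75% of all genes.

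In endothelial-like cells SCARB1 had a log2 fold change of 0.08 ± 0.22, and of 0.18 without HLS2 and LLS1. The synthesis genes had wide errors there (MSMO1 0.45 ± 0.64, SQLE 0.44 ± 0.79), none of the 7 was without overlap, beside 4.56% of all genes, and for the 6 synthesis and control genes HLS2 was the highest HLS ewe and LLS1 the highest LLS ewe. Over the 7 genes the median log2 fold change was 0.14, 0.39, 0.34 and 0.11 in granulosa-like, theca-like, stromal-like and endothelial-like cells, beside 0.01, 0.00, -0.01 and 0.00 over all genes tested. Differences of these sizes were not detectable against the spread between 3 ewes a group.

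**Figure D5:**
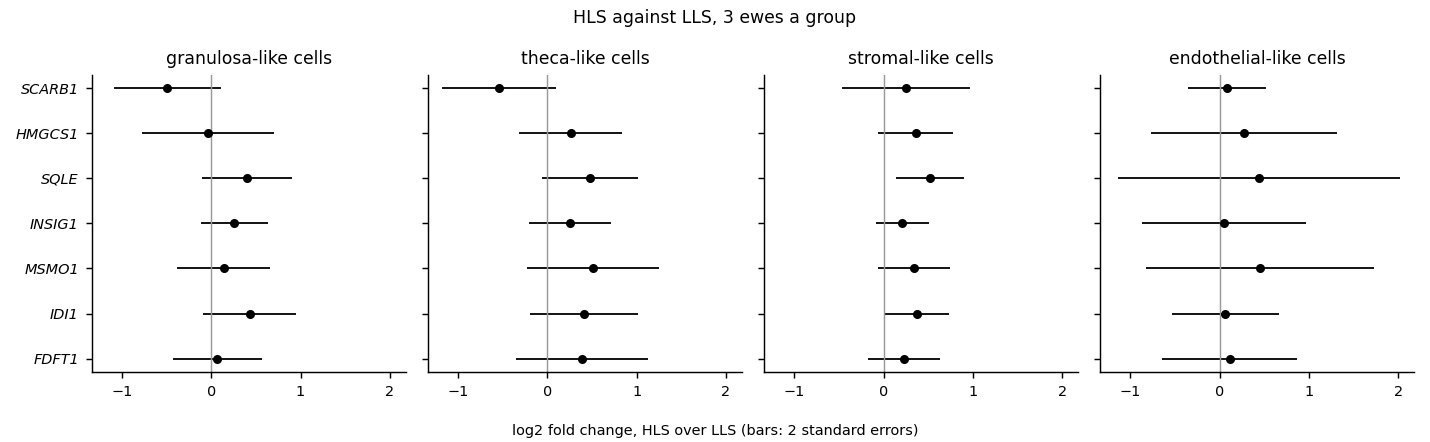
Log2 fold change of HLS over LLS (x axis, bars 2 standard errors, 3 ewes a group) of each gene (y axis) in 4 cell types. SCARB1 lies at -0.54 in theca-like and 0.08 in endothelial-like cells, and no gene passed an adjusted p of 0.05.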

How the data were processed

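Ovaries of 6 ewes gave 1 library each with a 10x 3' kit. The authors ran Cell Ranger with STAR and deposited raw UMI counts by gene and barcode; the genome build is not given in the sources used here, and neither coordinates nor sequences are printed. Of 52290 barcodes, 38464 passed the limits of at least 200 genes, at least 1000 UMI, a log10 genes to log10 UMI ratio of at least 0.7, at most 10% mitochondrial and at most 5% haemoglobin UMI. From these, 2007 (5.22%) that resembled simulated doublets were removed. Clusters came from 2000 variable genes, 30 principal components, 20 neighbours and leidenalg 0.10.2 at resolution 0.8, and were named from marker genes; the scoring rule was chosen after the clusters were seen. A cluster with more markers of another type than its own among its 10 leading genes stayed unnamed. Rebuilt names can differ from those of the study.

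UMI were summed per ewe and type with at least 10 cells, filtered (filterByExpr), scaled with TMM factors and tested with edgeR 4.0.16 in R 4.3.3, with Benjamini-Hochberg adjustment over all genes and a threshold of 0.05. The ewe was a block between types and states. DESeq2 1.42.0 was an alternative, as were other scaling, filters, resolutions and ewes left out. The edgeR script was tested on simulated data. No pairing of ewes is stated. The members and lists were chosen with earlier results of these data known. Named were the 7 genes and, of the other sterol genes in each comparison, up to 5 largest called changes each way and SREBF2, apart from some genes that are not reported here; the counts over the list include them.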

Additional observations from a re-analysis of the deposited data

Results flagged for a closer look

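In 6 of 98 groups of ewes examined the highest or lowest ewe lay farther from the nearest other ewe than Dixon's 95% limit. That limit is passed by chance in 1 in 20 independent groups. These groups were not independent, since they shared ewes and the states were part of the granulosa-like cells. The count thus cannot decide whether chance gave these values. IDI1 in granulosa-like cells was 4.73 in HLS replicate 2 against 2.32 to 3.13 in the other ewes, and IDI1 in stromal-like cells was 1.80 in the same ewe against 1.13 to 1.38. MSMO1 in theca-like cells was 3.39 in HLS replicate 1 against 1.44 to 2.12. SQLE in theca-like cells was 0.203 in LLS replicate 2 against 0.385 to 0.487. FDFT1 in CC-like cells was 1.01 in LLS replicate 3 against 0.447 to 0.624. INSIG1 in epithelial-like cells, which had enough cells in 4 ewes, was 0.384 in HLS replicate 3 against 0.170 to 0.205.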

How the results depend on the processing

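With 3 ewes a group, wide errors limit the HLS and LLS comparison, FDFT1 and SCARB1 have few UMI in single states, and the luteal-like values have no replicate; alternatives were not run for them. For HLS and LLS ewes of the same replicate number, correlations of deviations in granulosa-like cells were -0.0602, -0.175 and 0.205. Over the 4 types they were -0.341 to 0.000785 for numbers 1 and 2. For number 3 they were also positive in theca-like (0.0892), stromal-like (0.168) and endothelial-like cells (0.299). A fit with the replicate number as a block called 0 genes in each of the 4 types. Leaving out HLS2 and LLS1 together was chosen after seeing the data. With no doublet removal, a mitochondrial limit of 20% or a resolution of 0.4, a large stromal cluster stayed unnamed. Scaling by total counts alone moved the median of all genes by -0.19, -0.17, -0.08 and -0.08 in the HLS and LLS fits of granulosa-like, theca-like, stromal-like and endothelial-like cells, and by 0.16, -0.13, -0.15 and -0.23 between types and states in the order of the text. Of 448 HLS and LLS log2 fold changes of the 7 genes under alternatives, 415 kept their direction and 33 changed sign, 26 of them with ewes left out. Of 448 between types and states, 395 kept direction and call, 28 lost the call, 12 gained it and 13 changed sign. Of 98 levels taken as a mean over cells, 96 stayed within 1 SD, and the level of SCARB1 in immune-like cells (0.272) and the level of MSMO1 in CC-like granulosa cells (6.53) did not.

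Genes called between HLS and LLS, 0 in each type, became with DESeq2 3 in granulosa-like cells, 1 in stromal-like cells and 4 in endothelial-like cells, 56 in theca-like cells with no filter on low counts, and 1 in stromal-like cells without HLS2 and LLS1. With ewes left out in turn they were 0 to 1 in theca-like (1 without HLS3), 0 to 1 in stromal-like (1 without LLS1) and 0 to 2 in endothelial-like cells (2 without LLS1). Members called between theca-like and stromal-like cells, 3 of 7, were 1 with no ewe block, 5 with no doublet removal and 1 to 2 with an ewe left out, and between CC-like and eGC-like cells, 4 of 7, they were 2 (without HLS3) to 6 (without HLS1). The causes were not tested.

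The changes of sign were in values that had not passed the test. With total-count scaling, the HLS and LLS log2 fold change of FDFT1 was -0.12 and of MSMO1 -0.06 in granulosa-like cells, and of INSIG1 -0.01 and of SCARB1 -0.03 in endothelial-like cells; FDFT1 between theca-like and stromal-like cells was -0.00. Without HLS2 and LLS1, FDFT1 was -0.03 and MSMO1 -0.05 in granulosa-like cells, IDI1 -0.11 in endothelial-like cells, SQLE 0.04 between theca-like and stromal-like cells and IDI1 0.01 between CC-like and eGC-like cells, where IDI1 was also 0.01 with no ewe block. With no doublet removal, HMGCS1 was -0.10 between groups in theca-like cells, SQLE 0.18 between theca-like and stromal-like cells and IDI1 0.17 between CC-like and eGC-like cells. With a mitochondrial limit of 20%, HMGCS1 was -0.06 in theca-like and FDFT1 -0.01 in granulosa-like cells between groups, and SQLE 0.18 between theca-like and stromal-like cells. With resolution 0.4, SQLE was 0.09 there and IDI1 0.03 between CC-like and eGC-like cells.

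With ewes left out, the HLS and LLS values in granulosa-like cells ranged from -0.17 to 0.22 for FDFT1, -0.55 to 0.22 for HMGCS1 and -0.16 to 0.31 for MSMO1. In theca-like cells they ranged from -0.04 to 0.79 for FDFT1, -0.03 to 0.53 for HMGCS1 and -0.07 to 0.81 for MSMO1, and in stromal-like cells from -0.34 to 0.51 for SCARB1. In endothelial-like cells they ranged from -0.25 to 0.50 for FDFT1, -0.36 to 0.63 for INSIG1, -0.60 to 1.6 for SQLE, -0.30 to 0.26 for IDI1, -0.43 to 0.80 for HMGCS1, -0.44 to 1.22 for MSMO1 and -0.09 to 0.22 for SCARB1. FDFT1 between theca-like and stromal-like cells ranged from -0.07 to 0.21, and IDI1 between CC-like and eGC-like cells from -0.11 to 0.05.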

Other observations

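Some clusters outside the comparisons also differed in these genes. A granulosa sub-cluster led by the LH receptor gene LHCGR, which stayed unnamed and reached 10 cells in HLS2 and LLS1 only, had SCARB1 at 1.80 in HLS2 and 1.21 in LLS1 and MSMO1 at 11.08 and 4.71. The larger unnamed granulosa sub-cluster led by CCN3 had MSMO1 at 3.15 ± 0.976, HMGCS1 at 0.718 ± 0.184 and SQLE at 1.34 ± 0.389 (n = 4 ewes). Within the mGC-like cells the sub-cluster led by MMP9 had MSMO1 at 1.09 ± 0.429 (n = 4 ewes), and the sub-cluster led by PTX3 at 2.68 ± 0.509 (n = 5). Within the CC-like cells a sub-cluster led by PPP1R1A had SQLE at 0.161 ± 0.156 (n = 5), and the sub-cluster led by AMH at 1.26 ± 0.302 (n = 6).

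Cycling-like cells fell into a cluster led by TOP2A, with SCARB1 at 0.359 ± 0.079 and MSMO1 at 2.09 ± 0.512, and a cluster led by LOC121817401, with SCARB1 at 1.48 ± 0.40 and MSMO1 at 0.698 ± 0.398 (n = 6 ewes for both). An unnamed cluster led by CXCL12 had SCARB1 at 0.889 ± 0.076 and MSMO1 at 1.34 ± 0.911 (n = 4 ewes).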
